A study of Mus musculus with 8 samples.

Results

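The antigen presentation genes of mouse CD8 T cells were examined here in effector cells with and without Blimp-1. The set held the class II activator Ciita and 4 class II genes, Cd74, H2-Aa, H2-Ab1 and H2-Eb1, together with 5 class I genes, H2-K1, B2m, Tap1, Tap2 and Tapbp. Every probe that the platform annotation assigns to 1 of these 10 symbols was used, which gave 12 of the 24048 probes on the array, 6 for each class. A test was made of each member probe whose mean signal exceeded the median of all probes, which held for 11 of the 12. Each of 8 samples was hybridised to 1 single-colour Illumina array. The 4 CKO samples carried the genotype Blimp-1flox/flox x GranzymeB-cre+, and the 4 WT samples came from wildtype littermates. In both groups mice had been given 200000 plaque-forming units of LCMV-Armstrong, a strain of lymphocytic choriomeningitis virus that causes an acute infection, and spleens were taken on day 8. CD8+ cells that bound class I tetramers loaded with viral peptides were then sorted, so that the groups compare virus-specific effector cells by genotype. Transcripts of other cell types also varied between the samples, as described below. The Cre recombinase is driven by granzyme B, a gene of activated cytotoxic cells, so the deletion is limited to cells that have switched it on. The sources used here give neither the strain background nor the age of the mice, nor whether each sample came from a separate animal. The p-values therefore measure the spread between these samples, which may be technical.

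Class II molecules present peptides from engulfed material to CD4 T cells and are made mainly by B cells, dendritic cells and macrophages, while mouse T cells are known for making little of them. Their genes are switched on together by Ciita, a coactivator that is held at their promoters by the factors RFX, CREB and NF-Y, and Blimp-1 is known to silence Ciita when B cells become plasma cells. Class I molecules, a heavy chain such as H2-K1 bound to the light chain B2m, present peptides from inside the cell on nearly all cells, lymphocytes included. The peptides reach them through the transporter Tap1-Tap2 and the chaperone Tapbp.

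The promoters of a class II pair and a class I pair are shown because the factors that work with Ciita act in this stretch of DNA. Promoters of 6 member genes were found in the table used (H2-Aa, H2-Eb1, H2-K1, B2m, Tap1 and Tapbp), and 4 are printed. Each holds 300 bases, from 250 before the annotated start to 50 after it, 5′ to 3′ along the gene's own strand, taken from RefSeq on build GRCm38.p6. Capitals mark 3 motifs, each searched on both strands. CCAAT is bound by NF-Y and reads as ATTGG when it lies on the opposite strand. TGACG holds the core letters of a CREB site and reads as CGTCA when it lies on the opposite strand. AAGTGAAA, which reads as TTTCACTT on the opposite strand, is found in the interferon-beta promoter element through which Blimp-1 was first described. The H2-Aa promoter lies at chr17:34287774-34288073 on the minus strand and the H2-Eb1 promoter at chr17:34305617-34305916 on the plus strand. The H2-K1 promoter, that of the first of 2 listed starts, lies at chr17:34000298-34000597 on the minus strand and the B2m promoter at chr2:122147437-122147736 on the plus strand.
H2-Aa: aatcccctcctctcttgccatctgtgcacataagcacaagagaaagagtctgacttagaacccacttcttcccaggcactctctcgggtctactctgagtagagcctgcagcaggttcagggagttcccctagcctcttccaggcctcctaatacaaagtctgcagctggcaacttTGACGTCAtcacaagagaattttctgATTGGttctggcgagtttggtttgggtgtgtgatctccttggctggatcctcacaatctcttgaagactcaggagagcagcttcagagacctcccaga
H2-Eb1: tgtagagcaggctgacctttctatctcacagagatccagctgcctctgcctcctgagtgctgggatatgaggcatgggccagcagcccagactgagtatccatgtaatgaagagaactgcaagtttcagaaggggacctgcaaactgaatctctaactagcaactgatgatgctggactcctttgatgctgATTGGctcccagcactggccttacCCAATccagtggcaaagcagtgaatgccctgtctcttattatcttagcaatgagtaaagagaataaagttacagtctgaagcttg
H2-K1: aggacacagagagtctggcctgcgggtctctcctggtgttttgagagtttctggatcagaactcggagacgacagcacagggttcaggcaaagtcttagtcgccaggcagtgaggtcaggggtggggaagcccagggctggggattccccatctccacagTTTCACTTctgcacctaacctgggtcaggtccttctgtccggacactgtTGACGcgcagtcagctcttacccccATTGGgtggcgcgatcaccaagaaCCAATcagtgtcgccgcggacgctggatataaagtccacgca
B2m: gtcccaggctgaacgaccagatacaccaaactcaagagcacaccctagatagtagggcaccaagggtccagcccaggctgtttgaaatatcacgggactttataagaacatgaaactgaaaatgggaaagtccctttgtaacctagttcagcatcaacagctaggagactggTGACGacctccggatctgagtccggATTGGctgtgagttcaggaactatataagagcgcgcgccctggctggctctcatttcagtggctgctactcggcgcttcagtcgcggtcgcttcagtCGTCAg
A CCAAT box in either direction occurred in all 4, and in 37.9% of 27025 mouse promoters of the same length. TGACG or CGTCA occurred in H2-Aa, where both overlap as a palindrome beginning 74 bases before the start, in H2-K1 and in B2m, against 21.0% of promoters. The AAGTGAAA letters occurred in H2-K1, 90 bases before the start, and in 1.67% of promoters. These matches describe letters in these windows only.

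All values are log2 signals, on a scale with a lowest value of 5.33 or 5.34, a median of 6.15 and a highest value of 15.15 on every array. A difference is the CKO mean minus the WT mean on that scale, with its moderated standard error (SE), and was tested with limma against an adjusted p of 0.05 over 11991 probes. Transcripts of T cell identity were bright throughout, with Cd3e between 12.7 and 13.4 and the brighter Cd8b1 probe between 14.1 and 14.7, while the Cd4 probe lay near the floor. A dimmer Cd8b1 probe read 10.7 to 11.9. The probe of Gzmb, which encodes granzyme B and is named after its values were seen, also lay near the floor, at 5.62 to 6.17. Whether the Cd4 and Gzmb probes read their transcripts was not tested, so their low values do not show that these transcripts were absent. The targeted gene Prdm1, which encodes Blimp-1, was measured by a pair of probes that moved in opposite directions. One averaged 6.50 ± 0.15 in CKO and 7.78 ± 0.27 in WT (SD, n = 4 each), lower by limma with an adjusted p of 0.00121. The other averaged 9.01 ± 0.29 in CKO and 5.81 ± 0.22 in WT (SD, n = 4 each), higher by limma with an adjusted p of 4.43e-06. The exons these probes read are not analysed here. CKO2 and WT2 stood apart from the other samples by their 18S ribosomal RNA signal, 10.8 and 11.2 against 12.5 to 13.0.

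No member probe passed the test in either direction. Of all probes tested, 6.67% passed, 4.13% higher and 2.54% lower in CKO. At an unadjusted p under 0.05, in limma and in the exact permutation test alike, H2-K1 was the only member. Of all 11991 probes tested, 2490 were under 0.05 in limma. The members of the classes differed in how they varied. The class II members spread over as much as 3.79 log2 units among samples of both genotypes, in much the same order of samples. Ciita ranged over 0.97, and the class I members kept within 0.71 of a unit. Class I heavy chains outside the set, described below, did not all do so. H2-Q6 ranged over 1.32 units and H2-T10 over 4.0, while Mr1 ranged over 0.63. One class I gene, H2-K1, was lower in every CKO sample than in every WT sample and lay close to the threshold.

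**Figure D1:**
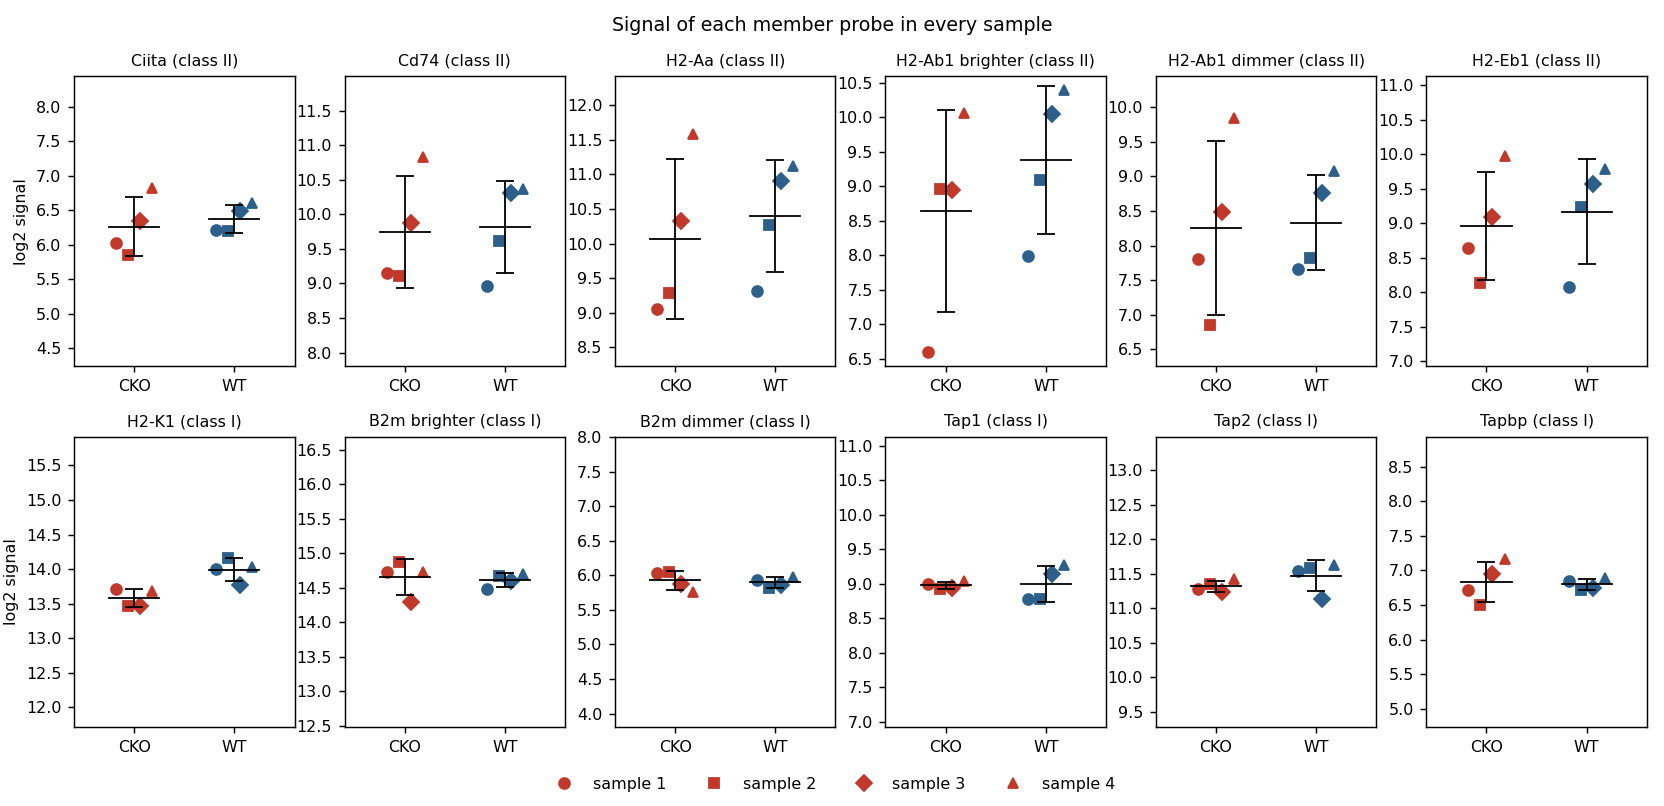
Log2 signal of the 12 member probes in each sample, 1 panel a probe, class II in the upper panels and class I in the lower ones, CKO left and WT right. Points are samples, with the marker shape giving the replicate number, horizontal bars are means and error lines are SD; the panels run over different heights with the same span, so that the wide scatter of class II probes and the tight grouping of class I probes can be compared.

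Ciita itself was dim. It gave 6.02, 5.85, 6.35 and 6.83 in CKO samples 1 to 4, against 6.22, 6.19, 6.49 and 6.60 in WT samples 1 to 4. The groups overlapped, and the highest and the lowest value were both CKO. The mean was 6.26 ± 0.43 in CKO and 6.38 ± 0.20 in WT (SD, n = 4 each), a difference of -0.12 (SE 0.20, 95% interval -0.55 to 0.32, limma adjusted p 0.812). Its mean over all arrays lay at percentile 59.3 of all probes, where the floor of the scale compresses differences.

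Cd74, the invariant chain that escorts class II molecules and blocks their groove, gave 9.15, 9.10, 9.88 and 10.84 in CKO samples 1 to 4, against 8.96, 9.61, 10.32 and 10.37 in WT samples 1 to 4. CKO4 was highest, and samples of both genotypes were found at both ends of a range of 1.87 log2 units, or 3.66-fold. The means were 9.74 ± 0.81 in CKO and 9.81 ± 0.67 in WT (SD, n = 4 each), a difference of -0.07 (SE 0.41, 95% interval -0.98 to 0.84, limma adjusted p 0.949). In bulk samples of this kind, a different number of cells of a type and a different amount of RNA per cell cannot be told apart.

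H2-Aa, the alpha chain of the I-A molecule, varied more. It gave 9.05, 9.28, 10.32 and 11.59 in CKO samples 1 to 4, against 9.32, 10.27, 10.90 and 11.13 in WT samples 1 to 4. CKO held both the highest and the 2 lowest samples, and the range was 5.80-fold. The means of 10.06 ± 1.16 in CKO and 10.40 ± 0.81 in WT (SD, n = 4 each) differed by -0.34 (SE 0.55, limma adjusted p 0.798). The 95% interval reached from 0.34-fold to 1.84-fold of WT. With the replicate block the SE was 0.20 and the limma adjusted p 0.327. Over fits that leave out 1 sample, the unblocked difference ran from -0.00 without CKO1 to -0.85 without CKO4.

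H2-Ab1 encodes the beta chain that pairs with H2-Aa and had a brighter and a dimmer probe. The brighter probe gave 6.60, 8.96, 8.95 and 10.06 in CKO samples 1 to 4, against 8.00, 9.10, 10.04 and 10.39 in WT samples 1 to 4. CKO1 lay furthest down, and the groups overlapped. The means were 8.64 ± 1.46 in CKO and 9.38 ± 1.07 in WT (SD, n = 4 each), a difference of -0.74 (SE 0.70, limma adjusted p 0.628). Samples with the same number deviated together, and with the number as a block the SE was 0.20 and the limma adjusted p 0.0466, with CKO lower in 4 of 4 pairs, when 5.1% of all probes were lower. The pairs differed by -1.40, -0.14, -1.09 and -0.33, and without CKO1 the unblocked difference was -0.06 (limma adjusted p 0.976).

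The dimmer H2-Ab1 probe disagreed. It gave 7.81, 6.86, 8.49 and 9.84 in CKO samples 1 to 4, against 7.67, 7.83, 8.76 and 9.08 in WT samples 1 to 4. Here CKO1 stood above WT1 and CKO2 was lowest, and 2 pairs were higher and 2 lower in CKO. The means of 8.25 ± 1.26 in CKO and 8.33 ± 0.69 in WT (SD, n = 4 each) differed by -0.08 (SE 0.56, limma adjusted p 0.956, or 0.863 with the block). CKO1 was thus the lowest sample on the brighter probe only.

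H2-Eb1, the beta chain of the I-E molecule, gave 8.64, 8.13, 9.09 and 9.98 in CKO samples 1 to 4, against 8.08, 9.23, 9.57 and 9.79 in WT samples 1 to 4. The samples of both genotypes were interleaved over 1.90 log2 units. The means were 8.96 ± 0.78 in CKO and 9.17 ± 0.76 in WT (SD, n = 4 each), a difference of -0.21 (SE 0.43, 95% interval -1.15 to 0.74, limma adjusted p 0.849).

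Across the class II members, the order of the samples recurred. CKO4 was highest on 5 of the 6 probes and WT4 on the remaining one, the brighter H2-Ab1 probe. WT3 ranked in the same place, just below these, on all 6, and the lowest sample was always one numbered 1 or 2. Samples numbered 3 and 4 together took the top 4 places on 4 of the 6 probes. Taking the brightest probe of each gene as a deviation from its WT mean, the median over the 5 class II genes was -0.66, -0.71, -0.08 and 0.81 in CKO samples 1 to 4. It was -1.09, -0.18, 0.50 and 0.62 in WT samples 1 to 4. For the 5 class I genes the same median stayed between -0.25 and 0.05 in CKO and between -0.05 and 0.09 in WT.

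**Figure D2:**
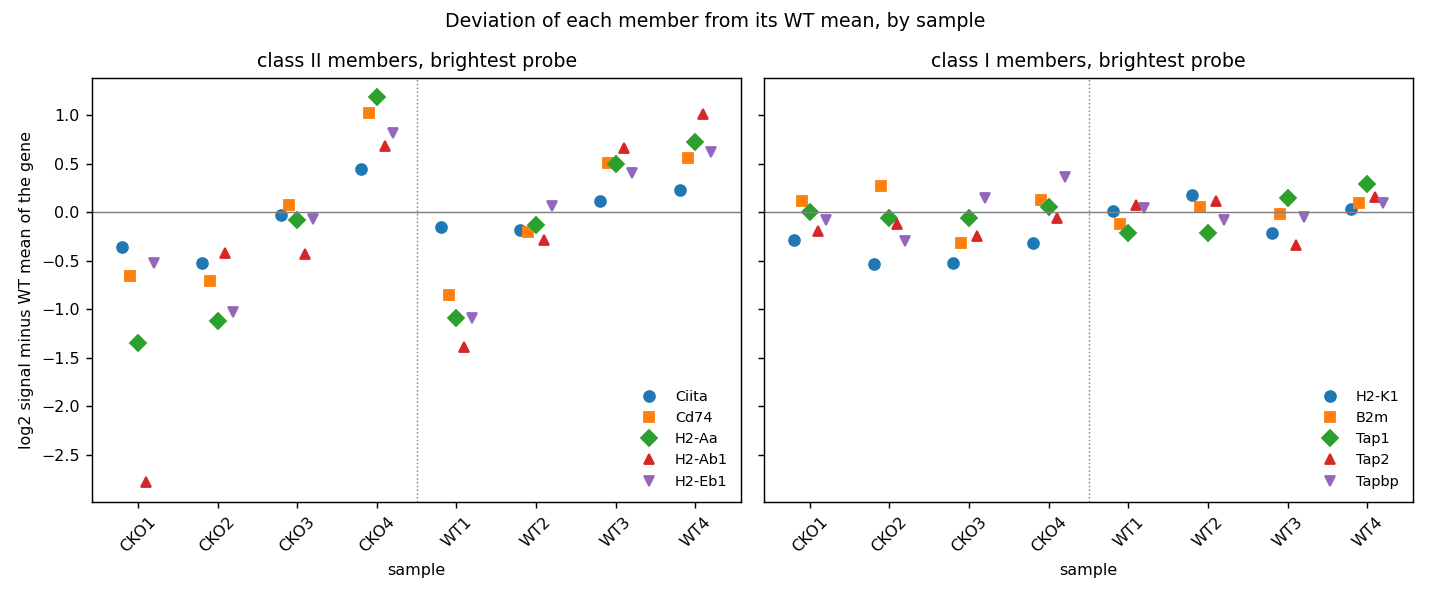
Deviation of the brightest probe of each member from its own WT mean (log2 signal, vertical axis) by sample (horizontal axis, CKO left of WT), class II members in the left panel and class I in the right, with 1 marker shape a gene. Class II markers sit together high in CKO4, WT3 and WT4 and low in CKO1, CKO2 and WT1, except H2-Ab1 far below in CKO1, while class I markers stay closer to 0, with H2-K1 below 0 in all CKO samples.

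The spread within a genotype is given for both classes as a description. The residual SD had a median of 0.772 over the 5 class II genes (0.335 to 1.28) and 0.187 over the 5 class I genes (0.148 to 0.211), against 0.171 over all tested probes. Correspondingly, the SE of a difference was 0.20 to 0.70 for class II genes and 0.11 to 0.14 for class I genes. All 5 class II differences were below 0, with a median of -0.21, and 3 of 5 class I differences were, with a median of -0.01; 52.7% of all tested genes lay below 0. The class II genes share their samples and largely their order, so their signs are not independent.

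**Figure D3:**
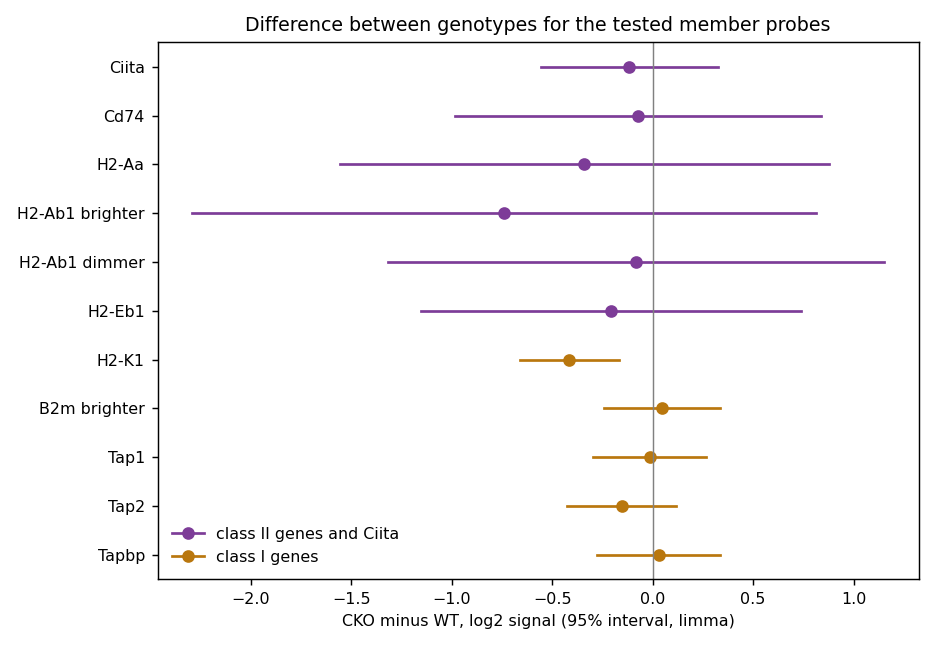
CKO minus WT difference (log2 signal) of the 11 tested member probes with 95% intervals from limma, class II above class I. Class II intervals are wider than class I intervals, least so for Ciita, and all include 0, and that of H2-K1 lies wholly below 0.

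The genes whose pattern over the 8 samples was most like that of Cd74 were found by the root mean square difference of deviations from each gene's own mean, over 8092 genes. H2-Eb1 came closest at 0.192 log2 units, followed by Alox5ap at 0.197, Aif1 at 0.236, Rnase6 at 0.276 and H2-Aa at 0.281, with a median of 0.688 over all genes. Alox5ap, which serves leukotriene synthesis in myeloid cells, gave 6.51, 6.74, 7.27 and 8.78 in CKO samples 1 to 4, against 6.61, 7.21, 7.91 and 7.65 in WT samples 1 to 4. Aif1, a calcium-binding protein of macrophages, was likewise highest in CKO4, at 8.63, with 6.997 to 7.30 in the other CKO samples and 7.06 to 7.95 in WT. Among the other members, Ciita ranked 17, Tapbp 169, Tap1 252, B2m 3121, Tap2 3422, H2-K1 3904 and the brighter H2-Ab1 probe 6746, and Lyz2, a macrophage lysozyme, ranked 5841. The measure is not scaled, so a gene that varies over a much wider range than Cd74 can rank low even where its samples fall in a like order. Cd74 ranged over 1.87, Lyz2 over 3.85, the brighter H2-Ab1 probe over 3.79 and H2-Aa over 2.54. The brighter H2-Ab1 probe also differed in order, with CKO1 at place 8 and CKO3 at 6, against 6 and 4 for Cd74. A gene that varies little comes near the median whatever its order, as Tap2 at 0.675 and H2-K1 at 0.685. The samples compared share these arrays, and the likeness is a description.

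Markers of other cell types varied over the same samples. Of all tested genes, 7.77% were called in either direction and 23.3% had an unadjusted p under 0.05 in limma. Of the monocyte or macrophage list, 9 of 18 genes were tested, 0 were called (1 at an unadjusted p under 0.05 in limma), and 7 were highest in CKO4, where 8.86% of all tested genes were highest. Their summed linear signal over 14 genes with a probe was 1938, 1596, 1791 and 4645 in CKO samples 1 to 4, against 2082, 1629, 2294 and 2146 in WT samples 1 to 4. C1qb and Lyz2 are named after their values were seen. C1qb, a complement subunit made by macrophages, was 9.57 in CKO4 and 6.66 to 7.52 in the other samples. Lyz2 was 6.56, 6.98, 8.47 and 10.30 in CKO samples 1 to 4, against 6.45, 6.73, 8.87 and 8.75 in WT samples 1 to 4.

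C1qb and Lyz2 share the high CKO4 of the class II transcripts, and Lyz2 also the high WT3 and WT4. The monocyte or macrophage list as a whole was high in CKO4 only. Its median deviation from the WT mean was 1.12 in CKO4, against 0.02, -0.25, 0.20 and 0.01 in WT samples 1 to 4. The B cell list had 5 tested genes of 16, 0 called (2 at an unadjusted p under 0.05 in limma), and a summed signal of 832 to 915 in CKO and 883 to 1189 in WT, highest in WT2. Pax5, Blk, Fcer2a, Cr2 and Vpreb3 of that list were not above the median of all probes. The dendritic cell list had 8 tested genes of 14, 0 called (2 at an unadjusted p under 0.05 in limma), and sums of 7055 to 8923 in CKO and 7303 to 10029 in WT. Flt3, Clec9a, Ccr9, Clec10a and Cd209a were not above the median. Interferon-stimulated genes had 12 tested of 20, 3 of them higher (Usp18, Ly6e and Cxcl10), against 4.73% of all tested genes, 5 at an unadjusted p under 0.05 in limma, 10 highest in CKO4, and sums of 15794 to 22685 in CKO and 12742 to 15940 in WT. The part of these lists in the class II values was not tested.

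Turning to class I, H2-K1 was among the brightest transcripts of the array. It gave 13.71, 13.46, 13.47 and 13.68 in CKO samples 1 to 4, against 14.01, 14.17, 13.77 and 14.03 in WT samples 1 to 4. Every CKO sample lay below every WT sample, a separation that 13.7% of all tested probes showed in one direction or the other. The means were 13.58 ± 0.13 in CKO and 13.99 ± 0.16 in WT (SD, n = 4 each), a difference of -0.41 (SE 0.11, 95% interval -0.66 to -0.17), or 1.33-fold more in WT. The limma adjusted p was 0.0541, just short of the threshold, and the exact two-sided permutation p was 0.0286, the smallest that 4 against 4 samples can give. With the replicate number as a block it was 0.0343 by limma, with pairs at -0.30, -0.71, -0.30 and -0.35, when 11.3% of all probes passed.

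The light chain B2m gave 14.73, 14.88, 14.29 and 14.73 in CKO samples 1 to 4, against 14.49, 14.66, 14.59 and 14.70 in WT samples 1 to 4. Its groups overlapped, with CKO3 lowest and CKO2 highest. The means of 14.66 ± 0.25 in CKO and 14.61 ± 0.09 in WT (SD, n = 4 each) differed by 0.05 (SE 0.13, 95% interval -0.24 to 0.33, limma adjusted p 0.898). A dimmer B2m probe, not tested, stayed between 5.76 and 6.05 in CKO and between 5.82 and 5.98 in WT, near the floor of the scale. It lay at percentile 28.5 of all probes.

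Tap1, a subunit of the peptide transporter, gave 8.998, 8.93, 8.94 and 9.05 in CKO samples 1 to 4, against 8.77, 8.78, 9.14 and 9.28 in WT samples 1 to 4. All CKO samples fell inside the span of the WT samples, and the difference was -0.01 (SE 0.13, 95% interval -0.30 to 0.27, limma adjusted p 0.965). Tap2, the other subunit, gave 11.28, 11.35, 11.23 and 11.41 in CKO samples 1 to 4, against 11.54, 11.59, 11.13 and 11.63 in WT samples 1 to 4. WT3 alone lay below the CKO samples, and the other WT samples lay above them. The difference was -0.16 (SE 0.12, 95% interval -0.42 to 0.11, limma adjusted p 0.546), and -0.27 without WT3. Tapbp, the chaperone tapasin that bridges the transporter and class I molecules, was 6.50 to 7.17 in CKO (median 6.83) and 6.72 to 6.89 in WT (median 6.80), a difference of 0.03 (SE 0.14, 95% interval -0.28 to 0.34, limma adjusted p 0.935). On chromosome 17 the member genes follow each other in the order Tapbp, H2-K1, Tap1, Tap2, H2-Ab1, H2-Aa and H2-Eb1, with other genes among them, so the even and the variable members are neighbours.

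Other class I heavy chains lay on the same side as H2-K1. Of 21 genes listed, 12 were tested and 0 were called, against 7.77% of all tested genes. All 12 were below 0, with a median of -0.38, against -0.01 over all tested genes. H2-D1, H2-Q1, H2-T3 and H2-Bl of that list had probes that were not above the median of all probes and were not tested. H2-D1, chosen after its values were seen, lay near the floor, at 5.71 to 6.06 in CKO and 5.75 to 6.11 in WT. At an unadjusted p under 0.05 in limma there were 7 of the 12, against 23.3% of all tested genes. The groups did not overlap for 4 of them, H2-K1, H2-M3, H2-T10 and Mr1, against 15.7% of all tested genes in either direction. With the replicate block 5 were lower, H2-K1, H2-M3, H2-Q6, H2-T22 and H2-T23, against 5.69% of all tested genes. Called lower were H2-K1 and H2-M3 with 1 probe a gene, with 50 added to the linear value, with array weights, with the filter at the 75th percentile and without WT3. With a trended robust variance H2-K1 was, and with samples numbered 3 and 4 alone H2-T10 and H2-T22 were. H2-T10, Mr1, H2-Q6, H2-T22 and H2-T23 are named after their values were seen. The H2-K, H2-Q and H2-T genes resemble each other closely, and a probe may catch more than 1 of them, so the assignment of their signal to a single gene is uncertain. H2-M3, Mr1 and Cd1d1 are more distant relatives.

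H2-M3, which presents formylated peptides, gave 9.29, 9.39, 8.998 and 9.34 in CKO samples 1 to 4, against 9.75, 9.84, 9.43 and 9.88 in WT samples 1 to 4. The groups did not overlap, and the difference was -0.47 (SE 0.13, limma adjusted p 0.0582, or 0.0103 with the block). Mr1, which presents vitamin metabolites, averaged 6.68 ± 0.13 in CKO and 7.01 ± 0.15 in WT (SD, n = 4 each), with a limma adjusted p of 0.0974. The brighter probe of H2-T23, the ligand of the inhibitory receptor CD94-NKG2A, averaged 12.52 ± 0.36 in CKO and 13.03 ± 0.40 in WT (SD, n = 4 each), with a limma adjusted p of 0.228, or 0.00910 with the block. The summed linear signal of 8 CD8 T cell markers also differed without overlap, at 64884 to 76875 in CKO and 81898 to 89225 in WT. A linear sum weighs the brightest probes most. Of 7 tested genes, 3 were lower by limma (Cd2, Thy1 and Prf1), against 3.04% of all tested genes. At an unadjusted p under 0.05 in limma there were 5 of the 7, against 23.3% of all tested genes. The groups did not overlap for 4 of the 7, against 15.7% of all tested genes in either direction. Below 0 were 6 of the 7, and Cd3d was above 0. Of 5 tested neutrophil genes, 2 were lower (Camp and Ltf), and 2 were at an unadjusted p under 0.05 in limma. Of 2 tested CD4 T cell genes, 1 was higher (Ctla4), against 4.73% of all tested genes, and 2 were at an unadjusted p under 0.05 in limma. Of 2 tested plasma cell genes, 0 were called and 0 were at an unadjusted p under 0.05 in limma.

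The erythroid list had 4 tested genes of 8, all below 0 with a median of -2.14, of which 0 were called and 2 were at an unadjusted p under 0.05 in limma. Its summed linear signal was 18798, 615, 292 and 424 in CKO samples 1 to 4, against 12707, 17188, 7243 and 5338 in WT samples 1 to 4. CKO1 thus lay above every WT sample and the other CKO samples below every one. The part of these lists in the heavy chain values was not tested.

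**Figure D4:**
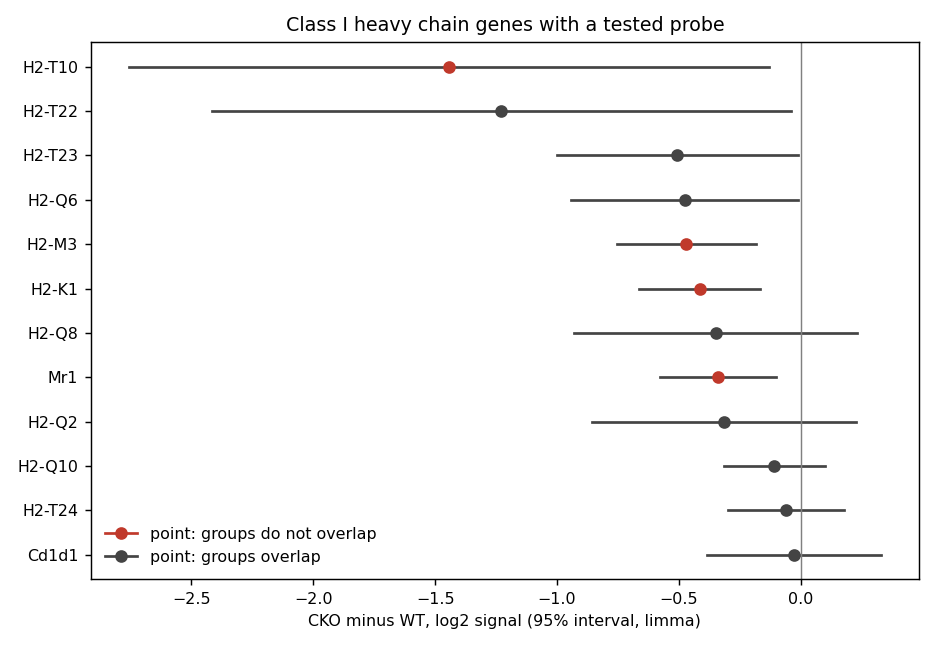
CKO minus WT difference (log2 signal, with 95% intervals from limma) of the brightest tested probe of 12 class I heavy chain genes, with the marker style showing whether the CKO and WT samples overlap. All 12 points lie below 0, those of H2-T10 and H2-T22 with the widest intervals.

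CKO1 stood far below the other samples on H2-T10 and on one of the 2 probes each of H2-T22 and H2-T23. H2-T10 gave 7.88, 10.86, 10.88 and 10.96 in CKO samples 1 to 4, against 11.34, 11.44, 11.68 and 11.90 in WT samples 1 to 4. H2-T22, on its brighter probe, was 6.45 in CKO1 and 8.89 to 9.95 in the other samples, and the dimmer H2-T23 probe was 8.61 in CKO1 and 11.5 to 12.6 in the others. On the other probe of H2-T22 and of H2-T23, CKO1 was 6.98 and 12.56, and CKO2 was lowest at 6.60 and 12.02. Without CKO1, H2-T10 alone of the list was called lower. The brighter probe of H2-Ab1, described above, belongs to the same group of probes that stand low in that sample.

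The loading machinery was listed apart from the molecules that it loads. The class I loading and light chain list had 12 tested genes of 15, 0 called, against 7.77% of all tested genes, and a median difference of 0.03. At an unadjusted p under 0.05 in limma there were 2 of the 12, against 23.3% of all tested genes. Those 2 were the proteasome activator subunit Psme1 and the immunoproteasome subunit Psmb9. On the brightest probe of each, every CKO sample was higher than every WT sample. Groups that did not overlap, in either direction, were found for 15.7% of all tested genes. Psme1 averaged 12.78 ± 0.10 in CKO and 12.47 ± 0.10 in WT (SD, n = 4 each), with a limma adjusted p of 0.0892. A dimmer Psme1 probe overlapped, at 11.94 to 12.17 in CKO and 11.73 to 12.25 in WT (limma adjusted p 0.416). Psmb9 averaged 13.21 ± 0.11 in CKO and 12.91 ± 0.11 in WT (SD, n = 4 each), with a limma adjusted p of 0.107.

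The list of class II molecules and loading had 11 tested genes of 15, 0 called and a median of 0.13, which was -0.07 without CKO4 and -0.00 without WT1. At an unadjusted p under 0.05 in limma there was 1 of the 11, against 23.3% of all tested genes. With the block H2-Ab1 was lower. Of the 11, 9 were highest in CKO4. Ctss, the protease cathepsin S that trims the invariant chain, gave 10.62, 10.76, 10.95 and 11.61 in CKO samples 1 to 4, against 10.28, 10.45, 10.48 and 9.998 in WT samples 1 to 4. All CKO values were above all WT values, and the difference was 0.69 (SE 0.20, limma adjusted p 0.0766). H2-DMa, a chain of the peptide exchange molecule H2-DM, differed by 0.25 (SE 0.18, limma adjusted p 0.511), and by 0.10 without WT1 to 0.38 without WT2 over fits that leave out 1 sample.

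Of the regulators of both classes, 12 of 18 genes were tested, with 1 higher and 0 lower, against 4.73% higher and 3.04% lower over all tested genes, and a median of -0.08. The one that rose was Irf4, a transcription factor of activated lymphocytes. It gave 8.84, 8.89, 9.21 and 8.87 in CKO samples 1 to 4, against 8.10, 8.65, 8.22 and 8.48 in WT samples 1 to 4. The groups did not overlap. The difference was 0.59 (SE 0.14, limma adjusted p 0.0332, or 0.0243 with the block, when 6.87% of all tested genes were higher), and it was no longer called without CKO1, CKO3, CKO4, WT1, WT3 or WT4, with a limma adjusted p of 0.0183 to 0.110 over fits that leave out 1 sample. The brightest Irf1 probe and Nfyb, chosen after their values were seen, were lower in every CKO sample than in every WT sample. Groups that did not overlap were found for 15.7% of all tested genes in either direction. Neither passed, with limma adjusted p of 0.118 and 0.109. On the dimmer tested Irf1 probes the groups overlapped, with limma adjusted p of 0.581 to 0.876.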

How the data were processed

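The deposited table holds 1 log2 signal per probe and array for 24048 probes, made by the authors from single-colour Illumina arrays. RNA was amplified and labelled with biotin, per the labels' protocols. Scanner, background correction and normalization: not given in the sources used here. Sorted columns differed by at most 0.0236 log2 units at the same quantile, and each array lacked a value for 0.952% to 1.31% of probes. Whether background was subtracted is unknown, and a floor above 5 understates the differences of dim probes. The number of arrays limits the precision. Probe positions were not used here.

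Gene symbols came from the platform annotation: 19397 probes had 1 symbol, 0 had several and 4651 had none. Probes with a mean above 6.12, the median of all probes, were tested (11991, for 8095 genes) in limma 3.58.1 (R 4.3.3, lmFit and eBayes). Tests were two-sided at a threshold of 0.05 after Benjamini-Hochberg adjustment over all probes tested. A gene with several probes was represented by its brightest tested one in counts of genes. Exact permutation tests over the 8 samples used scipy 1.17.1, two-sided. The fit was tested on simulated data.

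Samples with the same replicate number deviated together from their group means, with correlations over probes of 0.318, 0.468, 0.178 and 0.224. All exceed 0.1, so the numbers were taken to pair the samples, and the blocked fit stands beside a result whose call it changed. CKO4 with WT3 and CKO3 with WT4 correlated at 0.254 and 0.263, above CKO3 with WT3 and CKO4 with WT4. For samples numbered 3 and 4 the correlations thus do not single out the pairing by number, on which the blocked results rest. The labels do not say what a shared number stands for.

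The members and all gene lists were chosen with earlier results of these data known. Named genes were the members, Prdm1, up to 4 called genes of each pathway list or else the 2 with the smallest p, and the 5 genes most like Cd74. Called genes of marker lists are named too, and the text marks any other gene picked once its values were known. H2-K1 ranged over less than 1 log2 unit, so no likeness to it is given. Alternatives varied the filter, the floor of the scale, the normalization, the variance model, array weights, the block, the samples used and the choice of probe.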

Additional observations from a re-analysis of the deposited data

Results flagged for a closer look

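In 40 groups of 4 samples that were checked, the gap between an extreme sample and its nearest neighbour exceeded Dixon's 95% critical value in 2, as a share of the group's range, and chance flags about 1 in 20 groups. Tap2 was 11.13 in WT3, with the nearest WT sample at 11.54 and a gap of 0.836 of the range. Irf4 was 9.21 in CKO3, with the nearest CKO sample at 8.89 and a gap of 0.859 of the range.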

How the results depend on the processing

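Of 218 values of member probes under an alternative, 180 kept their sign and their side of the threshold, 8 newly passed and 30 changed sign, none of the 30 having passed. H2-K1 was lower under all 20 alternatives, by -0.50 to -0.32 with limma adjusted p between 0.0236 and 0.441, and passed under 7. Member probes called lower numbered 0, but 1 with a filter at the 75th percentile, with 50 added to the linear value, with a trended robust variance, with array weights and with 1 probe a gene, 2 with the replicate block (H2-K1 and the brighter H2-Ab1 probe), and 0 to 1 with 1 sample left out. The block changed no other member's call, and 0 member probes were called higher throughout. Over all probes, 495 were higher and 305 lower. Array weights gave 936 and 764, the replicate block 749 and 611, samples numbered 1 and 2 alone 13 and 8, samples numbered 3 and 4 alone 690 and 553, leaving out the samples numbered 2 (chosen after seeing the data) 606 and 464, and leaving out 1 sample 242 to 559 higher and 121 to 427 lower. Fits on 4 to 7 samples rest on fewer samples, and for the other settings the cause was not tested.

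Signs changed as follows. With array weights the differences were -0.040 for B2m, 0.23 for the dimmer H2-Ab1 probe, 0.11 for Cd74 and 0.052 for H2-Eb1. With samples numbered 3 and 4 alone they were -0.14 for B2m, 0.25 for the dimmer H2-Ab1 probe, 0.016 for Cd74 and 0.040 for Ciita, and with samples numbered 1 and 2 alone -0.17 for Tapbp and 0.19 for Tap1. Without the samples numbered 2 they were -0.011 for B2m, 0.21 for the dimmer H2-Ab1 probe, 0.074 for Cd74 and 0.090 for H2-Eb1. With 1 sample left out they ranged from -0.029 to 0.17 for B2m, -0.081 to 0.14 for Tapbp, -0.61 to 0.38 for the dimmer H2-Ab1 probe, -0.44 to 0.14 for Cd74, -0.30 to 0.021 for Ciita, -0.57 to 0.068 for H2-Eb1 and -0.088 to 0.081 for Tap1. Ciita, Tapbp and the dim B2m probe lie near the floor of the scale, which limits what their differences can show.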

Other observations

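On 5 of 11986 tested probes with values on all arrays, CKO1 lay at least 1 log2 unit below every other sample, and all 5 belong to genes of chromosome 17. They are the brighter H2-Ab1 and H2-T22 probes, the dimmer H2-T23 probe, H2-T10 and Map3k4. CKO2, CKO3, WT1 and WT2 lay as far below all others on 4, 2, 2 and 5 probes, none of them on chromosome 17 where named, and CKO4, WT3 and WT4 on 0. CKO4 lay as far above all others on 22 probes, against 0 to 4 for any other sample. These counts were made after the values were seen, and no cause was tested.

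H2-Oa, which encodes a chain of the class II inhibitor H2-DO, followed none of the class II members. It gave 10.68, 8.01, 9.64 and 9.60 in CKO samples 1 to 4, against 9.80, 10.12, 7.09 and 7.12 in WT samples 1 to 4. CKO2, WT3 and WT4 were at least 1.5 units below the rest, and the difference was 0.95 (SE 0.77, limma adjusted p 0.560). This gene was chosen after its values were seen.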
